A study of Mus musculus with 8 samples.

Results

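Penk, Pdyn, Pnoc, Tac1, Tac2, Nts, Cck and Vip encode the precursor proteins of the enkephalins, dynorphins, nociceptin, substance P, neurokinin B, neurotensin, cholecystokinin and vasoactive intestinal peptide. Their transcripts were compared between hypothalamus RNA of mice that gained much weight (high gainers) and of mice that gained little weight (low gainers). Each gene was taken by its symbol from probes annotated to exactly 1 gene. These 8 genes, with 1 probe each, were found among 13840 genes named by such a probe. Of these 13840 genes, 6170 had a probe with a value on all 7 arrays that entered the comparison, and so did all 8 precursors.

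All mice were male and of the inbred strain C57BL/6J, with no genetic modification named in the labels. Both groups received the same diets and differed in the weight they gained. The diets were a high-fat diet for 6 weeks, a low-fat diet for 2 weeks and the high-fat diet again for 6 weeks. In the study's experiment with this schedule, the low-fat diet was restricted to less than each mouse had eaten before. Hypothalamus RNA of 20 high gainers was combined in 1 pool and RNA of 20 low gainers in another. Each pool was hybridised to 4 one-colour arrays, numbered 1 to 4. The arrays are technical replicates, so an SD or a p-value here describes the spread between arrays of a pool and carries nothing on the spread between mice. Values are the normalized intensities as deposited, on a linear scale unless log2 is named, and an intensity depends on the probe as well as on the transcript.

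Neuropeptides are cut from larger precursors inside secretory granules, released from neurons and bound by receptors that mostly belong to the G protein-coupled family. In the hypothalamus, opioid peptides are linked to the reward value of food, the neurokinin B and dynorphin of arcuate neurons to reproduction, and neurotensin and cholecystokinin to a lower food intake. Vasoactive intestinal peptide is a transmitter of the suprachiasmatic nucleus, the circadian clock of the brain. Several of these genes are transcribed in response to cyclic AMP through the cAMP response element, whose core half-site reads TGACG.

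The half-site shows what some of these genes share in sequence apart from their array values. It was chosen with the sequences in view and searched in the 250 bases before the annotated start, on both strands, so that it may also read CGTCA. Promoter entries from RefSeq (GRCm38.p6) were matched for 6 of the 8 genes, Pdyn, Tac1, Tac2, Nts, Cck and Vip. Of these, 4 held the half-site, as did 17.8% of the 32851 promoters searched in the same way. A match is a description of the letters, and no binding was measured. For each gene the match nearest to the start is shown within 61 bases, written 5′ to 3′ on the strand of the gene with the half-site in capitals:
Tac1: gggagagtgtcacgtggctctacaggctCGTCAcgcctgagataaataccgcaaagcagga
Cck: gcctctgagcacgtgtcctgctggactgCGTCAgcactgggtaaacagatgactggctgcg
Vip: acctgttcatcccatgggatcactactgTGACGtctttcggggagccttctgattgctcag
Nts: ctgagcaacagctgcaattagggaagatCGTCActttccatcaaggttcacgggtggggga
The windows lie at chr6:7554990-7555050 on the plus strand for Tac1, chr9:121495709-121495769 on the minus strand for Cck, chr10:5639111-5639171 on the plus strand for Vip and chr10:102490552-102490612 on the minus strand for Nts. The capitals begin 43 bases before the start in Tac1, 47 in Cck, 79 in Vip and 166 in Nts. Tac1 held another match 197 bases before its start. The 4 genes with the half-site did not share a direction between the pools. As described further on, Tac1, Nts and Cck had a lower mean log2 intensity in high gainers and Vip a higher one, and the difference of Tac1 and of Vip was smaller than the spread between arrays.

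The arrays carried values for between 13657 (low gainer array 3) and 16873 (low gainer array 4) of 33012 probes. Low gainer array 2 stood apart, since its log2 intensities correlated with those of the other arrays at r between 0.228 and 0.253, against 0.941 to 0.987 among the other 7, and it is described separately. After normalization, low gainer array 1 had a higher mean r with the high gainer arrays (0.977) than with low gainer arrays 3 and 4 (0.953). The same held for low gainer array 4 (0.962 with high gainer and 0.949 with the other low gainer arrays). Low gainer array 3 was level (0.958 and 0.959). Its deposited intensities had a median of 0.990, against 0.714 to 0.882 on the other arrays compared. By limma, a linear model fitted to all 11169 probes with a value on the 7 arrays, 3 probes had an adjusted p under 0.05, those of the pituitary transcripts Gh, Cga and Prl. Hypothalamic markers were present, as 11 of the 14 with a probe had a value on all 7 arrays, among them Oxt, Avp and Hcrt, while the transcription factor gene Nkx2-1 had a value on none of these. The summed intensity of markers of other cells did not overlap between the pools for pituitary (8.30 to 10.4 in high gainers and 0.837 to 1.38 in low gainers), oligodendrocytes (47.2 to 75.2 and 12.4 to 41.4) and red cells (8.94 to 14.8 and 18.4 to 37.2). The oligodendrocyte sum was mostly Mbp (42.1 to 66.7 and 9.68 to 36.1). The red cell sum was mostly Hba-a1 (8.11 to 13.9 and 17.0 to 35.8). Of the other tested markers of these 2 cell types, Mag and Hbq1a did not overlap, while Mog, Cnp, Cldn11 and Alas2 did. In bulk RNA, fewer cells of a type and less RNA per cell cannot be told apart.

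None of the 8 precursors passed the adjusted threshold of 0.05 by limma. In the same fit 0.0269% of all probes passed it. At an unadjusted p under 0.05 by limma there were 3 precursors, Penk, Nts and Cck, where 6.48% of all probes were under it, and the two-group test of the study's methods gave 2, Penk and Cck, where 4.27% of all probes were under it. After normalization 1 precursor, Penk, had no overlap between the pools, against 4.77% of all probes. On the deposited scale there were 2, Penk and Cck, against 4.43%. The log2 difference, high minus low gainer, was above 0 for 3 precursors and below 0 for 5, with a median of -0.14 where all probes had a median of -0.00. Its size regardless of sign had a median of 0.24 for the precursors and 0.17 for all probes.

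**Figure D1:**
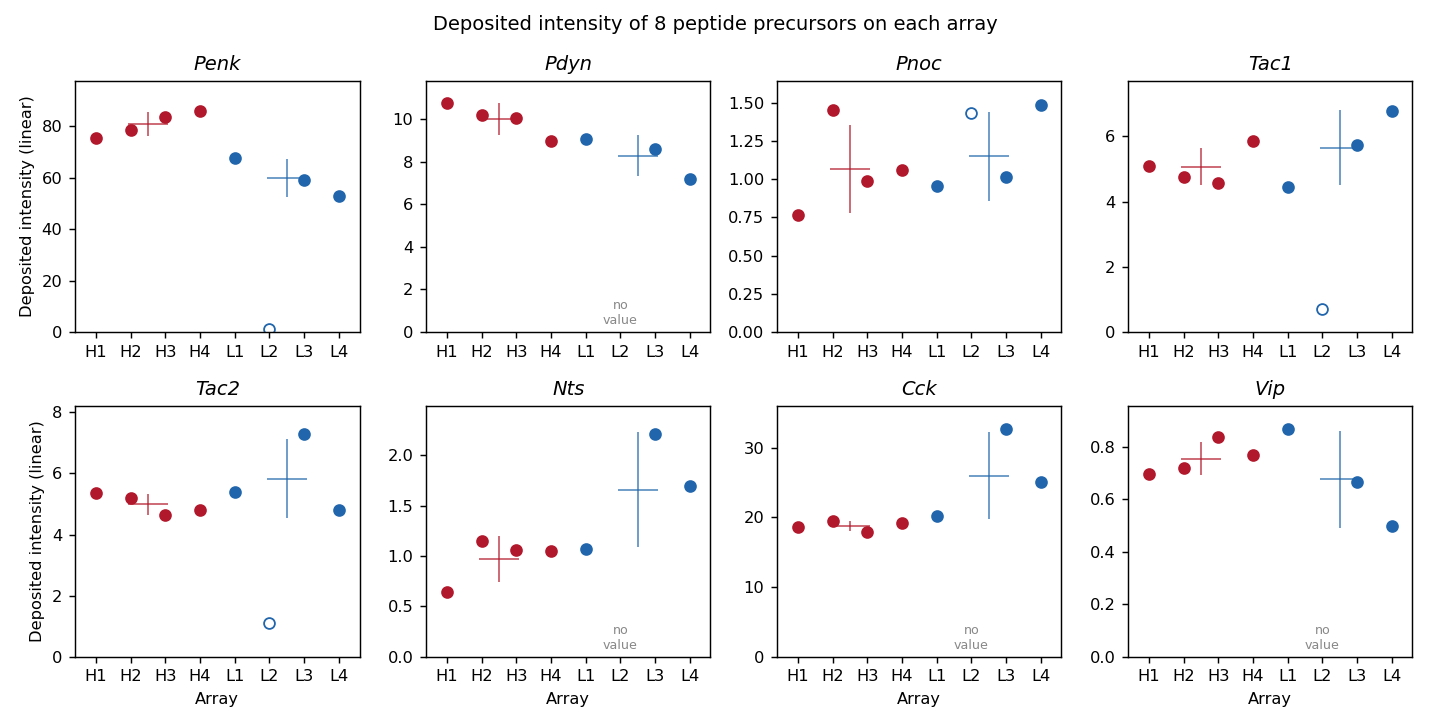
Deposited intensity (linear scale from 0) of each precursor on every array, with high gainer arrays (H) in red, low gainer arrays (L) in blue and low gainer array 2 as an open circle or marked as having no value. Horizontal marks and vertical bars are the mean and SD of 4 high gainer and of 3 low gainer arrays. Penk lies at 75.3 to 86.0 on the high gainer arrays and at 52.8 to 67.5 on low gainer arrays 1, 3 and 4.

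Among the opioid precursors, Penk was the one that separated the pools on every scale used. Penk read 75.3, 78.6, 83.4 and 86.0 on high gainer arrays 1 to 4, while low gainer arrays 1, 3 and 4 gave 67.5, 58.9 and 52.8. All high gainer arrays lay above all 3 low gainer arrays, of which array 1 came nearest. The mean of the high gainer arrays was 80.8 ± 4.79 (SD, n = 4), and that of the low gainer arrays was 59.7 ± 7.41 (n = 3). By limma the normalized level of the high gainer pool was 1.39 times that of the low gainer pool, a log2 difference of 0.48 with a 95% confidence interval from 0.17 to 0.79 and an adjusted p of 0.750. Penk held place 60 of 11169 when probes were ordered by their p-value. The adjusted p was 0.0581 by limma without low gainer array 1, with a log2 difference of 0.56. Without low gainer array 3 the difference was 0.38 and the adjusted p 0.999, and without low gainer array 4 they were 0.49 and 0.385.

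The rank of a probe on its own array does not depend on scaling between arrays. Its percentile does depend on which probes had a value there, and these were fewest on low gainer array 3 (13657). Penk stood at percentile 99.3 to 99.5 of the probes with a value on the high gainer arrays, and at 99.2, 98.6 and 99.1 on low gainer arrays 1, 3 and 4. The ranks of the pools did not overlap either. Penk is strongly expressed in the striatum, a neighbouring region of the forebrain, so striatal markers stand beside it. All 7 tested striatal markers had a log2 difference above 0, with a median of 0.17, and none passed the threshold by limma, with Pde10a, a phosphodiesterase of striatal neurons, at 2.06-fold and an adjusted p of 0.750. Their summed intensity was 33.2 to 42.1 on the high gainer arrays and 30.0 to 36.2 on the low gainer arrays, which overlap. Of the 7, the dopamine receptor gene Drd2 (1.239 to 1.68 in high gainers, 0.788 to 1.234 in low gainers) and the signalling regulator Rgs9 (9.015 to 10.2 and 7.67 to 9.003) were higher on every high gainer array than on every low gainer array. Penk was so too, but the margins of Drd2 and Rgs9 were narrow. The other striatal markers overlapped, with Pde1b at 1.00-fold. Of all probes, 4.43% had no overlap between the pools on this scale. On the log2 scale the median deviation of the markers was 0.24, 0.23, -0.14 and 0.01 on high gainer arrays 1 to 4, where Penk was 0.13 to 0.25 above its mean over 7 arrays. The marker median was -0.08, -0.25 and 0.05 for low gainer arrays 1, 3 and 4, and Penk was at -0.09, -0.48 and -0.25 there, so that array 3 was lowest for both. No striatal marker with a probe lacked a value on every array, and the part of striatal tissue in the Penk difference was not tested.

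Pdyn encodes the precursor of the dynorphins, which act mainly on the kappa opioid receptor. It read 10.7, 10.2, 10.1 and 8.95 on high gainer arrays 1 to 4, while low gainer arrays 1, 3 and 4 gave 9.03, 8.61 and 7.18. High gainer arrays 1 to 3 were above all low gainer arrays, and high gainer array 4 lay just under low gainer array 1. The mean was 9.98 ± 0.745 (n = 4) against 8.27 ± 0.974 (n = 3). The fold was 1.23 in high over low gainers with a 95% confidence interval from 0.968 to 1.56 and an adjusted p of 0.787 by limma, and the log2 difference was 0.30.

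Pnoc, whose product nociceptin acts on the opioid-like receptor Oprl1, was a dim probe near the middle of each array. It read 0.769, 1.45, 0.987 and 1.06 on the high gainer arrays, while low gainer arrays 1, 3 and 4 gave 0.954, 1.01 and 1.49. Both pools covered nearly the same range, and each held 1 array close to 1.5. The log2 difference was -0.14 with a 95% confidence interval from -0.65 to 0.38 (adjusted p = 0.947 by limma), and it was 0.01 without high gainer array 1 or without low gainer array 4.

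**Figure D2:**
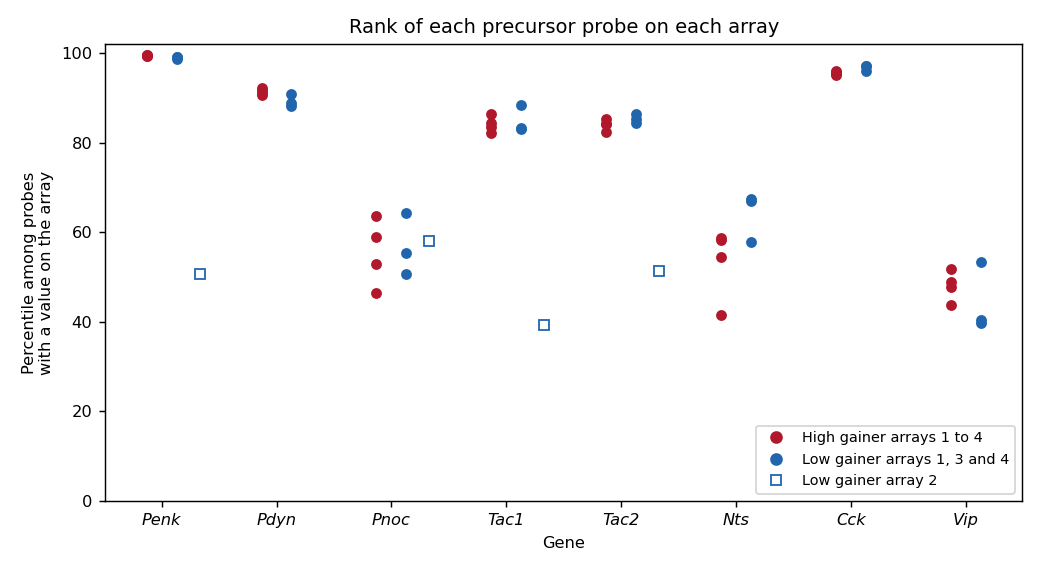
Percentile of each precursor probe among all probes with a value on the same array, with 4 high gainer arrays in red, low gainer arrays 1, 3 and 4 in blue and low gainer array 2 as open squares for the 4 genes with a value there. Penk is at percentile 98.6 or above on 7 arrays and at 50.5 on low gainer array 2.

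The tachykinin precursors did not separate the pools. Tac1, the precursor of substance P and neurokinin A, read 5.09, 4.75, 4.58 and 5.86 on the high gainer arrays, while low gainer arrays 1, 3 and 4 gave 4.46, 5.74 and 6.78. The lowest and the highest of the 7 values were both in low gainers. The fold in high over low gainers was 0.911 with a 95% confidence interval from 0.695 to 1.19 (adjusted p = 0.926 by limma). Tac2, the precursor of neurokinin B, read 5.36, 5.19, 4.63 and 4.80 on the high gainer arrays, while low gainer arrays 1, 3 and 4 gave 5.41, 7.30 and 4.80. Low gainer array 3 was high for Tac2, and the other 2 low gainer arrays lay within or next to the range of the high gainers. The fold was 0.876 with an interval from 0.671 to 1.14 (adjusted p = 0.884 by limma), and the log2 difference of -0.19 came to -0.02 without low gainer array 3.

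Vip was dim as well, at percentile 43.7 to 51.8 on the high gainer arrays and 39.6 to 53.2 on the low gainer arrays. It read 0.697, 0.719, 0.837 and 0.768 on high gainer arrays 1 to 4, while low gainer arrays 1, 3 and 4 gave 0.867, 0.665 and 0.497. The high gainer arrays fell inside the range of the low gainers. The fold was 1.10 in high over low gainers with a 95% confidence interval from 0.761 to 1.59 (adjusted p = 0.948 by limma). The intervals of Pnoc, Tac1, Tac2 and Vip all include no difference, and each also reaches a difference larger in size than the 1.39-fold of Penk.

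Nts and Cck, which encode the precursors of neurotensin and of cholecystokinin, a satiety peptide of gut and brain, had lower mean levels in the high gainer pool. Nts read 0.639, 1.14, 1.05 and 1.05 on the high gainer arrays, while low gainer arrays 1, 3 and 4 gave 1.07, 2.21 and 1.70. Low gainer arrays 3 and 4 were above all others, low gainer array 1 lay among the high gainers, and high gainer array 1 was the lowest. The level in low over high gainers was 1.67-fold, a log2 difference of -0.74 (high minus low) with a 95% confidence interval from -1.34 to -0.14 and an adjusted p of 0.750 by limma. The difference was -1.03 without low gainer array 1 (adjusted p = 0.0741 by limma) and -0.73 without low gainer array 4 (0.462). Without low gainer array 3 it was -0.46, with an interval from -1.09 to 0.16 (adjusted p = 0.999 by limma). Without high gainer array 1 it was -0.55, with an interval from -1.15 to 0.06 (adjusted p = 0.995 by limma).

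Cck was among the brighter probes, at percentile 95.1 to 97.2 on the 7 arrays. It read 18.6, 19.5, 17.8 and 19.2 on high gainer arrays 1 to 4, while low gainer arrays 1, 3 and 4 gave 20.2, 32.6 and 25.1. All low gainer values were above all high gainer values on this scale, with low gainer array 1 closest to the high gainers. After normalization high gainer array 2 (4.34 on the log2 scale) and low gainer array 1 (4.33) changed places, and the pools overlapped. The mean intensity of the high gainer arrays was 18.8 ± 0.744 (n = 4), below the 26.0 ± 6.24 (n = 3) of the low gainer arrays. The level in low over high gainers was 1.33-fold, a log2 difference of -0.42 with a 95% confidence interval from -0.76 to -0.07 and an adjusted p of 0.750 by limma. That difference was -0.58 without low gainer array 1 (adjusted p = 0.0660 by limma). Without low gainer array 3 it was -0.29, with an interval from -0.66 to 0.08 (adjusted p = 0.999 by limma). Without low gainer array 4 it was -0.38, with an interval from -0.77 to 0.01 (adjusted p = 0.518 by limma).

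Cholecystokinin is also made by many neurons of cortex and hippocampus. Of the 4 tested markers of these regions 3 had a log2 difference above 0 and 1 below, with a median of 0.06 and none past the threshold by limma. Neurod6, a transcription factor of pyramidal neurons, read 0.696 to 0.846 in high gainers and 1.04 to 1.46 in low gainers, while Tbr1, another cortical transcription factor, had a high-to-low ratio of 1.34. The summed intensity of all these markers was 6.83 to 7.48 in high gainers and 5.67 to 7.22 in low gainers. None of the 7 with a probe lacked a value on every array, and the part of cortical tissue in the Cck difference was not tested.

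**Figure D3:**
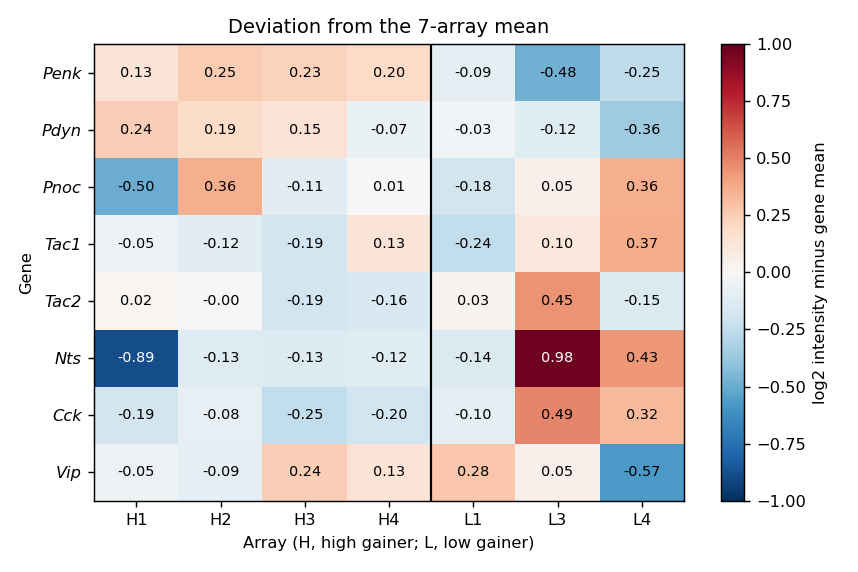
Log2 intensity of each precursor minus its mean over 7 arrays, by array (columns, H for high gainer and L for low gainer) with red above and blue below the mean. Penk is above its mean on all 4 high gainer arrays, and low gainer array 1 is at -0.09 for Penk, -0.14 for Nts and -0.10 for Cck, nearer to 0 than low gainer array 3 with -0.48, 0.98 and 0.49.

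The array-to-array spread was larger in the low gainer pool for 7 of the 8 precursors, all except Pnoc. The SD of log2 intensity over all probes had a median of 0.216 in high gainers and 0.328 in low gainers. Between the highest and the lowest low gainer array, Nts differed 2.06-fold, Vip 1.74-fold, Cck 1.61-fold, Pnoc 1.56-fold, Tac1 and Tac2 1.52-fold, Penk 1.28-fold and Pdyn 1.26-fold. The same ratio among the high gainer arrays was 1.10 for Cck, 1.14 for Penk and 1.79 for Nts. For Penk, Pdyn, Nts and Cck, low gainer array 1 was the low gainer array nearest to the high gainer mean. Leaving out that array gave all 8 precursors their lowest adjusted p among the 7 fits that each leave out 1 array. It ran from 0.0581 for Penk to 0.640 for Pnoc by limma, and 171 of all probes then passed the threshold against 3 with it. The adjustment runs over all probes, of which 1920 of 11247 were then at an unadjusted p under 0.05 by limma, against 724 of 11169. Unadjusted, the lowest p by limma was without low gainer array 4 for Tac2 (0.0973) and without high gainer array 2 for Pnoc (0.294).

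**Figure D4:**
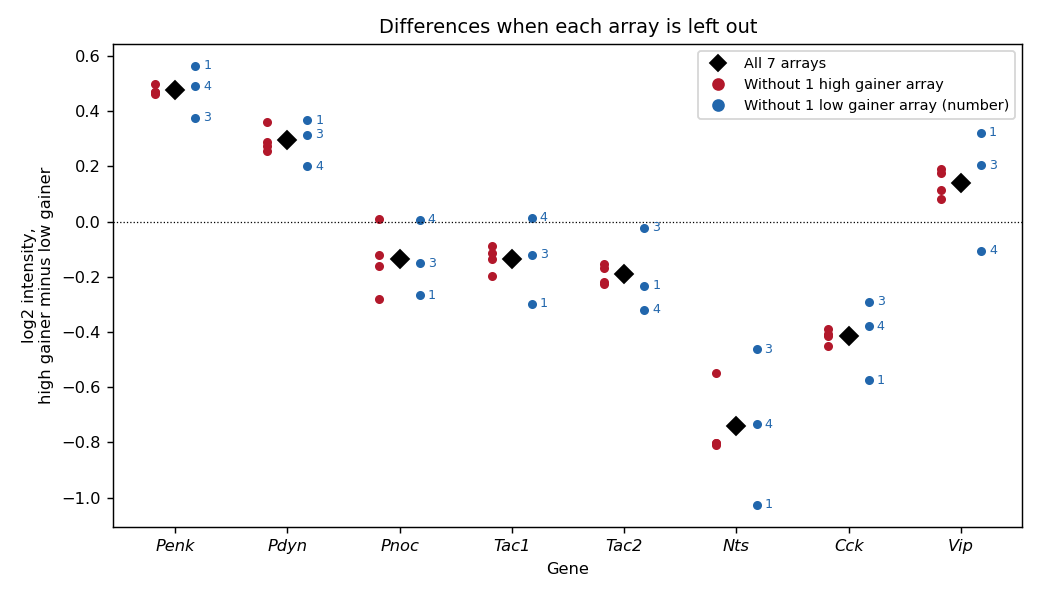
Log2 difference, high minus low gainer, of each precursor with all 7 arrays (diamonds), without 1 high gainer array (red) and without 1 low gainer array (blue, with its number). Penk stays between 0.38 and 0.56, Nts between -1.03 and -0.46 and Cck between -0.58 and -0.29, while Pnoc, Tac1 and Vip have values on both sides of 0.

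Low gainer array 2 had a value for Penk, Pnoc, Tac1 and Tac2 and an empty cell for Pdyn, Nts, Cck and Vip. Penk read 1.07 there, at percentile 50.5 of the array, in contrast to 52.8 or more on the other low gainer arrays. Tac1 read 0.700 (percentile 39.3) and Tac2 read 1.10 (percentile 51.4), both below every other array. Pnoc read 1.44, at percentile 57.9, inside the range of the other 7 arrays. With this array included, the log2 difference of Penk was 1.77 with a 95% confidence interval from -0.82 to 4.36 (adjusted p = 0.717 by limma).

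The receptors of these peptides were measured less completely than the peptides. Of 15 receptor genes, 13 had a probe of 1 gene, and neither the mu opioid receptor Oprm1 nor the cholecystokinin receptor Cckbr was among these. Measured on all 7 arrays were 6, of which 4 had a log2 difference above 0 and 2 below. Their median was 0.16, and 0 passed the threshold in either direction by limma. The 4 with the smallest p were Vipr1, a receptor of vasoactive intestinal peptide, at 0.63 (-0.06 to 1.32), the neurotensin receptors Ntsr2 at -0.27 (-0.65 to 0.11) and Ntsr1 at 0.34 (-0.16 to 0.84), and the delta opioid receptor Oprd1 at -0.35 (-0.96 to 0.26), each as a log2 difference with its 95% confidence interval. Tacr2, which binds neurokinin A, and Adcyap1r1, which binds the related peptide PACAP, had a value on 0 of these arrays. The kappa opioid receptor Oprk1 had a value on 1 low gainer array, the nociceptin receptor Oprl1 on 2 high gainer arrays and the substance P receptor Tacr1 on 1 high gainer array. Tacr3, the receptor of neurokinin B, read 0.175 to 0.382 on 4 high gainer arrays and 0.157 to 0.207 on 2 low gainer arrays.

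Enzymes that cut, finish or break down these peptides gave 14 tested genes of 23, of which 8 had a difference above 0 and 6 below, with a median of 0.10 and 0 past the threshold in either direction by limma. Pam, which amidates the ends of peptides such as substance P, cholecystokinin and vasoactive intestinal peptide, had a high-to-low ratio of 2.07. Its intensity covered 1.49 to 5.89 in high gainers and 0.434 to 2.36 in low gainers, so the pools overlapped (adjusted p = 0.758 by limma). The prohormone convertase Pcsk1 had a log2 difference of 0.61 (-0.05 to 1.27), the peptidase Thop1 of 0.42 (-0.11 to 0.94) and the aminopeptidase Enpep of -0.31 (-0.74 to 0.12).

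Other hypothalamic and related peptide precursors had differences mostly below 0. Of 22 genes 11 were tested, 1 with a difference above 0 and 10 below, with a median of -0.25 where all probes had -0.00, and 0 passed the threshold in either direction by limma. Those with the smallest p were Npy at -0.58 and Cartpt at -0.49, of arcuate neurons that drive and restrain feeding, Hcrt, the orexin precursor, at -0.50, and Avp, the vasopressin precursor, at -0.42, with adjusted p from 0.752 to 0.790 by limma. Pomc, the precursor of beta-endorphin and melanocortins and also a marker of pituitary cells, was not among the tested genes, as it had a value on only 1 of the 3 low gainer arrays. It read 0.735 to 1.48 on the 4 high gainer arrays and 0.208 on that low gainer array, the opposite direction to most of the list. Nts and Cck were below 0 together with most precursors of this list, and Penk and Pdyn were above 0. The median deviation of the list from the mean of each gene was -0.04, 0.34 and 0.23 on low gainer arrays 1, 3 and 4 and ran from -0.17 to 0.03 on the high gainer arrays. Many of these genes also serve as hypothalamic markers, and the summed intensity of the hypothalamic markers was 18.6 to 22.4 in high gainers and 21.6 to 28.4 in low gainers. Whether the amount of hypothalamic tissue in each pool has a part in the Nts and Cck differences was not tested.

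**Figure D5:**
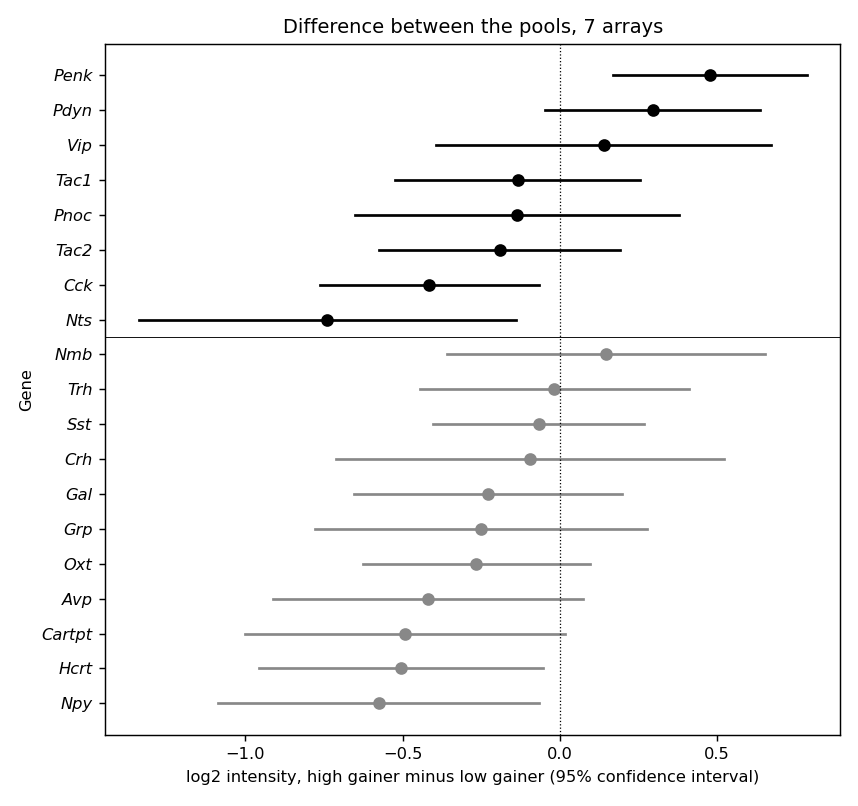
Log2 difference, high minus low gainer, with its 95% confidence interval for the 8 precursors (black) and 11 other peptide precursors (grey) over 7 arrays. The intervals of Penk, above 0, and of Cck, Nts, Hcrt and Npy, below 0, leave out 0, and none of these genes passed the adjusted threshold.

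The genes whose log2 intensity followed each precursor most closely over the 7 arrays are given as a description, since the arrays come from 2 pools and share their RNA. Penk was followed by Canx (Pearson r = 0.964), Gnai2 (0.955) and Kpna4 (0.951), and Pdyn by Klhl22 (0.950), Fcho1 (0.946) and Dpcd (0.944). For Pnoc these were Ndufa9 (0.975), Kyat1 (0.967) and Ebp (0.965), for Tac1 Fn3k (0.987), 2310057M21Rik (0.979) and Eml6 (0.978), and for Tac2 Olfr1263 (0.971), Ltv1 (0.968) and Gtpbp6 (0.961). For Nts they were Ptbp1 (0.991), Ndufa1 (0.985) and Rpl38 (0.980), for Cck Utp4 (0.983), Fxyd7 (0.980) and Rab4a (0.978), and for Vip Ptpra (0.998), Fam122a (0.995) and Cnmd (0.994). None of the 8 precursors was among the closest genes of another. These were sought among the 6332 tested probes of 1 gene, leaving out the precursor itself. The number of such probes with r above 0.9 ran from 22 for Pdyn and 23 for Penk to 172 for Vip and 195 for Cck.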

How the data were processed

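Groups came from the sample labels. Digoxigenin-labelled cRNA was hybridised by the authors to Applied Biosystems mouse genome arrays, which are read by chemiluminescence, and a quantile method was applied across arrays. The resulting intensities were deposited on a linear scale, with empty cells for many probes. Which step left cells empty, and the genome build of the array, are not given in the sources used here. Background per array was not used, so the number of arrays limits the precision.

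Log2 intensities of the 11169 probes with a value on 7 arrays (all except low gainer array 2) were quantile normalized again and the pools were compared in limma (3.58.1, under R 4.3.3) by lmFit and eBayes with a trend, with Benjamini-Hochberg adjustment over all probes and a threshold of 0.05. Confidence intervals are at 95%. The platform annotation named 1 gene for 14411 probes and several for 247, and probes with several were not used. All 8 precursors matched the RefSeq table by gene identifier. The brightest probe stood for a gene of a list. The text names all 8 precursors, up to 4 genes with the smallest p of each pathway list, receptors with a value on no array, the 3 genes most alike over 7 arrays, and marker genes where a result needs them. Further genes of a list are named only for the arrays that measured them, and were chosen after their values were seen. Precursors, lists and the arrays compared were chosen with earlier results of these data known. With 4 arrays against 3, an exact two-sided rank test cannot go below 0.0571, so none was used. The procedure was tested on simulated data. There it recovered 50.2% of the probes given a 2-fold change and 91.6% of those given a 4-fold change, at the adjusted threshold. Alternatives were all 8 arrays, other normalizations, a pseudocount, the brightest 50% of probes, missing values allowed, no trend, array weights, a block for the replicate number, the two-group test of the methods and leaving out each array.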

Additional observations from a re-analysis of the deposited data

Results flagged for a closer look

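In 12 groups of 4 arrays, a search for a single array far from the rest found 2, and chance alone gives about 1 in 20 groups. The low gainer groups, of the 4 precursors with a value on low gainer array 2, held that array, which was already known to stand apart. The chance rate does not apply to these groups, and the Penk result repeats what was known of the array. Penk on low gainer array 2 lay far below low gainer arrays 1, 3 and 4, with a gap to the nearest of them of 0.941 of the whole range on the log2 scale. Nts on high gainer array 1 (-0.66 on the normalized log2 scale) lay below high gainer arrays 2 to 4 (0.10 to 0.11), with a gap of 0.982 of the range.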

How the results depend on the processing

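Under 18 alternatives, 131 of 137 values of the 8 precursors kept the sign of the reported difference, 6 had the opposite sign and 0 passed the adjusted threshold (lowest adjusted p of 0.0581 by limma, for Penk without low gainer array 1). With all 8 arrays the log2 difference was 0.45 for Tac1 and 0.23 for Tac2 in place of -0.13 and -0.19. When each array was left out in turn it ran from -0.28 to 0.011 for Pnoc, from -0.30 to 0.014 for Tac1 and from -0.11 to 0.32 for Vip. The number of probes past the threshold was 3 as reported, 1 with all 8 arrays, 1 with the brightest 50% of probes and 0 by the two-group test of the methods, which had 477 probes at an unadjusted p under 0.05. It was 9 with the replicate block, and between 2 and 171 when each array was left out, the latter without low gainer array 1. Deviations from the pool mean of arrays of the same number had r of -0.199, 0.131 and -0.139 for numbers 1, 3 and 4. Those of different numbers had r from -0.522 to 0.448. So few arrays cannot show whether the numbers pair the arrays. None of the precursors was called with the replicate block. The cause of these shifts was not tested. With 1 pool per group, no setting bears on the spread between mice. Dim probes such as Pnoc, Nts and Vip have wider intervals than Penk, Pdyn and Cck.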
